A study of Mus musculus with 3 samples.

Results

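The collagen chain genes described here are the 43 protein-coding genes whose symbol has the form Col, a type number, a and a chain number, out of 24119 genes in the deposited tables. They were grouped by textbook class into 11 fibrillar chains (types I, II, III, V, XI, XXIV and XXVII), 7 basement-membrane chains (5 of type IV, with Col15a1 and Col18a1) and 25 other chains. The measurements are RNA-seq of pancreatic islets from male C57BL/6 mice. There were 3 groups, each represented by 1 library. HFD_CGP islets came from mice fed a high-fat diet and gavaged with CGP 57380, an inhibitor of the MNK kinases that phosphorylate the cap-binding translation factor eIF4E. HFD_DMSO islets came from mice on the high-fat diet gavaged with DMSO, and ND islets from mice on the diet labelled ND, also gavaged with DMSO. Gavage lasted 1 month in each group. The labels add an age or time of 4 month without saying what it counts, and do not give the number of animals behind a library. No group has a replicate, so no difference could be checked against the spread between animals, and every test below compares 2 libraries, not diets or treatments.

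Collagens are secreted proteins of the extracellular matrix, each assembled from alpha chains that wind into a helix. Fibrillar chains form the cable-like fibres of connective tissue and are made mainly by fibroblasts and, in the pancreas, by stellate cells. Type IV chains form the sheet-like network of basement membranes, which in islets surrounds the capillaries, and endothelial cells are a known source of them. The other chains include the beaded filaments of type VI, chains that bind to the surface of fibres (FACIT chains) and chains that span the cell membrane.

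Promoter windows were looked up for the chain genes in a RefSeq table on GRCm38.p6 that gives 250 bases before to 50 bases after a start site. It held 37 windows for 34 of the 43 genes. Not in it were Col1a1, Col2a1, Col5a2, Col4a3, Col12a1, Col14a1, Col22a1, Col26a1 and Col9a3. The windows of Col3a1 (chr1:45311288-45311587, plus strand) and Col1a2 (chr6:4505368-4505667, plus strand) are shown because these were the fibrillar chains with the most reads in HFD_DMSO islets. That of Col4a2 (chr8:11312555-11312854, plus strand) is shown because its last 78 bases are also part of the window of Col4a1. Capitals mark matches to the TATA box letters TATAAA, to the CCAAT box letters CCAAT and to the GC box letters GGGCGG. Both strands were searched, so a CCAAT box on the minus strand reads ATTGG and a GC box there reads CCGCCC. No match shown overlaps another.
Col3a1: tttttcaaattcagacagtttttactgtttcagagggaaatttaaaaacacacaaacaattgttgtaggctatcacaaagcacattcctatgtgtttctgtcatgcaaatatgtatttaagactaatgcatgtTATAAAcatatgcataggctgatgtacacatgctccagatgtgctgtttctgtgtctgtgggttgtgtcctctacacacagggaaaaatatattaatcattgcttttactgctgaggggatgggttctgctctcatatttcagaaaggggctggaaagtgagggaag
Col1a2: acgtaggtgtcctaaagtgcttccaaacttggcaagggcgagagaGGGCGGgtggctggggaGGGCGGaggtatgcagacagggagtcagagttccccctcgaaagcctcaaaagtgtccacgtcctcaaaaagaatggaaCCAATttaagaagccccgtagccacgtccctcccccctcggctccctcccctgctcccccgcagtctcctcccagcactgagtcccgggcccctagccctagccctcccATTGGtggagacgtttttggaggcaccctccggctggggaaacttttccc
Col4a2: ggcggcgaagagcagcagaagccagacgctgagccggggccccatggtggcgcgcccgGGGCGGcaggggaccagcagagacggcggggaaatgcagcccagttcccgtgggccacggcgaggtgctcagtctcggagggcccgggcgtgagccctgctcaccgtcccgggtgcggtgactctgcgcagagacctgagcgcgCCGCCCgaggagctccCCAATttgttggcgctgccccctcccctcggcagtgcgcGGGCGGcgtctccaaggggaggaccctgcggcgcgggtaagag
The Col3a1 window held 1 TATA box match and neither of the other motifs, and its GC content was 37.7%. In the Col1a2 window there were 2 CCAAT box and 2 GC box matches at a GC content of 61.0%, and in the Col4a2 window 1 CCAAT box and 3 GC box matches at 73.7%. Col4a1 and Col4a2 lie head to head on chromosome 8 and overlap by 22 bases. Their start sites are 21 bases apart (11312826 on the minus strand and 11312805 on the plus strand). Of the 37 collagen windows 5 held a TATA box match, 13 a CCAAT box match and 22 a GC box match. Over all 32841 windows of the table the shares were 13.6%, 37.4% and 35.7%. Among 8 fibrillar windows the counts were 2, 3 and 6, and among 7 basement-membrane windows 0, 4 and 4. A match describes these letters only.

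The libraries held 17623818 (HFD_CGP), 16297602 (HFD_DMSO) and 17129041 (ND) reads on genes. On these unscaled totals, 0 reads allow up to 0.17, 0.184 and 0.175 CPM (counts per 1000000 reads, for 3 reads, counting error only). These limits are not scaled as the CPM values below are. The islet label was checked against the hormone genes Ins1, Ins2, Gcg, Sst and Ppy, which together took 181000 CPM in HFD_CGP, 572000 in HFD_DMSO and 163000 in ND. These and all later CPM values are scaled by the factors edgeR's TMM method gave the libraries (1.15, 0.775 and 1.13). Acinar enzyme genes (Cela2a, Cpa1, Pnlip, Ctrb1 and Cel) summed to 44.6, 2470 and 8540 CPM in the same order. The libraries therefore differed in exocrine as well as endocrine transcripts, and the part of either in the collagen results was not tested. Fewer cells of a type and less RNA per cell cannot be told apart in such bulk samples.

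Collagen transcripts were a small part of every library, and the chains that led differed between them. In all, 10415 reads of HFD_CGP islets, 10438 of HFD_DMSO islets and 5633 of ND islets fell on the 43 genes, which was 0.0591%, 0.064% and 0.0329% of the reads. On the scaled values this was 516, 826 and 292 CPM. Compared per length, as RPKM (CPM per kilobase), the highest level in HFD_CGP islets was that of Col4a1 (16.1), followed by its partner Col4a2 (11) and the type VI chain Col6a6 (7.22). In HFD_DMSO islets the type III chain Col3a1 was highest (14.8), ahead of Col4a1 (12.2) and the type VI chain Col6a1 (10.2). Col6a6 led in ND islets (9.06), with Col4a1 (7.70) and Col4a2 (3.53) after it, while Col3a1 stood at 0.718 in the 11th place. Each library thus had a chain of another type on top.

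**Figure D1:**
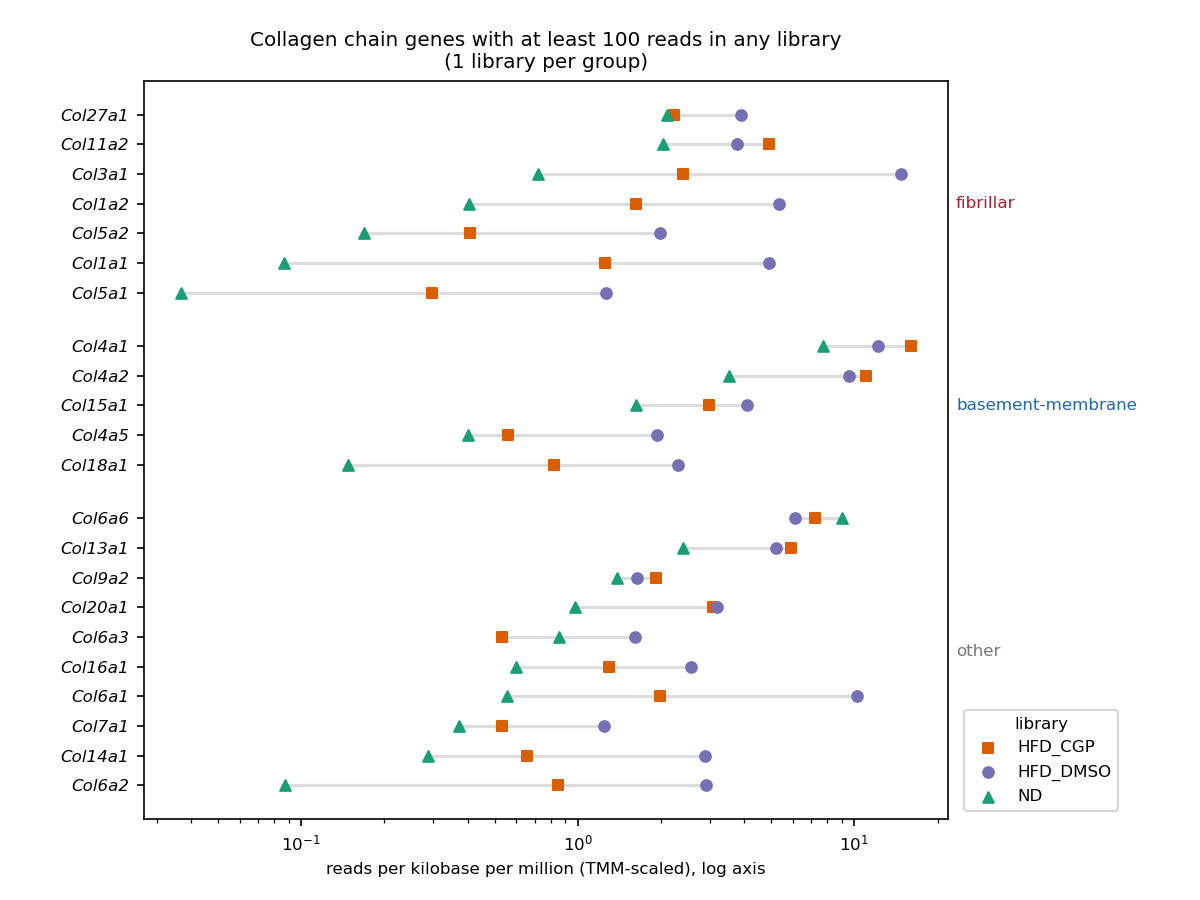
Levels of the 22 collagen chain genes with at least 100 reads in any library, in RPKM on a log axis, 1 point per library (squares HFD_CGP, circles HFD_DMSO, triangles ND) and a grey line over the range. Col1a1 spans 0.0869 in ND to 4.90 in HFD_DMSO, while Col6a6 stays between 6.09 and 9.06, with ND highest.

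Within the collagen reads of a library, a measure that needs no scaling between libraries, fibrillar chains took 23.9% in HFD_CGP (exact 95% binomial interval 23.1 to 24.7), 43.3% in HFD_DMSO (42.4 to 44.3) and 19.7% in ND (18.6 to 20.7). The share of the basement-membrane chains was 43.7% (42.7 to 44.7) in HFD_CGP, 25.7% (24.9 to 26.6) in HFD_DMSO and 33.7% (32.5 to 35.0) in ND. Other chains took 32.4%, 30.9% and 46.6% in the same order. The HFD_DMSO library was the one with more fibrillar than basement-membrane reads. Col1a1, Col1a2 and Col3a1 alone, the chains of types I and III, made up 10.1% of the collagen reads in HFD_CGP, 29.6% in HFD_DMSO and 4.33% in ND. For Col4a1 and Col4a2 the shares were 37.4%, 18.7% and 27.7%. Col6a6 alone took 12.8%, 6.75% and 28.4%. Intervals cover counting error only, and the shares were not adjusted for the transcript GC content described below. Leaving out the most read chain of each library gave a fibrillar share of 31.2% in HFD_CGP (without Col4a1), 31.2% in HFD_DMSO (without Col3a1) and 27.5% in ND (without Col6a6). The chain left out was fibrillar in HFD_DMSO only, so the share had to fall there and to rise in the other libraries. These values therefore do not compare the libraries.

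**Figure D2:**
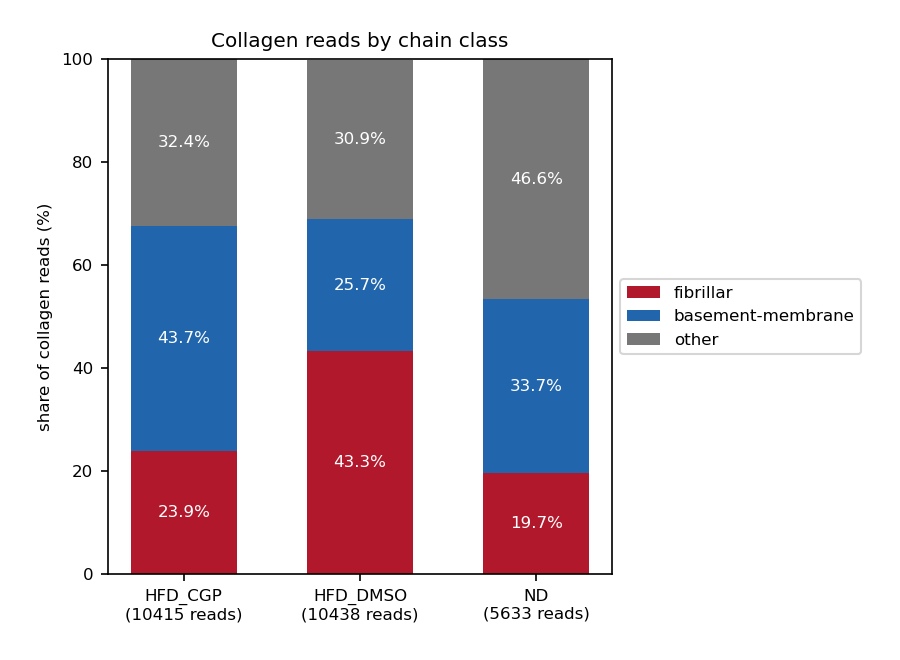
Share of the collagen reads of each library (%) that fell on fibrillar (red), basement-membrane (blue) and other (grey) chains, with the number of collagen reads under each bar. The fibrillar share is 23.9% in HFD_CGP, 43.3% in HFD_DMSO and 19.7% in ND.

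HFD_DMSO vs ND compares a library from each diet, both from mice gavaged with DMSO. Chains of every class were higher in HFD_DMSO islets, among them the fibrillar chains of types I, III and V, the type VI chains Col6a1 and Col6a2 and the basement-membrane chain Col18a1. By the adjusted p under 0.05 in the authors' deposited table, 21 of the 42 chain genes tested rose and 1 fell, where 12.6% of all 22899 genes rose and 13.2% fell. Of the fibrillar chains 7 of 11 rose and 0 fell, of the basement-membrane chains 4 of 7 rose, and of the other chains 10 of 24 rose and 1 fell. Over genes with at least 10 reads in the higher library, the median log2 fold change was 3.72 for fibrillar, 1.33 for basement-membrane and 1.70 for other chains, against 1.71 for all chains and -0.08 for all genes. The fibrillar median lay 2.39 above the basement-membrane one, a description of 1 pair of libraries with no test.

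Among the fibrillar chains, Col1a1 and Col1a2 encode the chains of type I collagen. Col1a1 (ENSMUSG00000001506, chromosome 11, 94936224 to 94953042, GRCm38) had 406 reads in HFD_DMSO islets against 11 in ND islets. It rose by 5.80 on the log2 scale (95% counting interval 4.96 to 6.83), or 55.6-fold, with an adjusted p of 9.4e-20 in the authors' deposited table. For Col1a2 (ENSMUSG00000029661, chromosome 6, 4504814 to 4541544) the reads were 839 against 97 and the log2 fold change 3.72 (3.42 to 4.04). Col3a1, the chain of type III collagen (ENSMUSG00000026043, chromosome 1, 45311538 to 45349706), was the most read collagen gene of the HFD_DMSO library, with 1841 reads against 136 in ND, and rose by 4.37 (4.12 to 4.63). The type V chains, which join type I fibres and set their width, rose as well. Col5a1 had 135 reads in HFD_DMSO and 6 in ND (5.07, interval 3.94 to 6.57), and Col5a2 had 240 and 31 (3.56, 3.02 to 4.15). Col5a3 had 76 and 19 reads (2.60, 1.87 to 3.42). The 7th fibrillar chain that rose was Col24a1, with 11 reads in HFD_DMSO and 0 in ND, which is at least 5.6-fold higher with a floor of 3 reads per library. Not every abundant fibrillar chain passed: Col27a1 had 644 reads in HFD_DMSO against 530 in ND (0.89, 0.72 to 1.06) and Col11a2, a type XI chain known from cartilage, 325 against 267 (0.89, 0.66 to 1.13). The fibrillar cartilage chains that remain, Col2a1 and Col11a1, had at most 8 reads in any library.

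The basement-membrane chains split. Col4a1 (ENSMUSG00000031502, chromosome 8, 11198423 to 11312826) and Col4a2 (ENSMUSG00000031503, 11312805 to 11449287), whose products assemble together into the common type IV network, had 1148 and 800 reads in HFD_DMSO, against 1109 and 451 in ND. Col4a2 rose by 1.44 (1.27 to 1.61), while Col4a1 did not pass the test (0.66, 0.54 to 0.78, adjusted p of 0.25 in the authors' deposited table). Col4a5, a chain of a specialised type IV network known from kidney, had 165 reads in HFD_DMSO and 52 in ND and rose by 2.27 (1.82 to 2.76). Its network partners Col4a3 and Col4a4 had 14 and 24 reads in HFD_DMSO and 39 and 30 in ND, and neither passed. Col18a1, whose tail is released as endostatin, had 205 reads in HFD_DMSO against 20 in ND and rose by 3.96 (3.30 to 4.71), the largest log2 fold change of the class. Col15a1, its close relative, had 329 and 200 reads and rose by 1.33 (1.07 to 1.59).

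Among the other chains, the type VI genes, whose products form beaded filaments around cells, did not move as a block. Col6a1 (ENSMUSG00000001119, chromosome 10, 76708792 to 76726168) had 565 reads in HFD_DMSO against 47 in ND and rose by 4.19 (3.77 to 4.66). Col6a2 had 307 and 14 reads and rose by 5.05 (4.30 to 5.95). Col6a3, their usual partner in the type VI molecule, had 243 and 198 reads and did not pass (0.91, 0.63 to 1.18). Col6a6, a later-found relative of Col6a3, had 705 reads in HFD_DMSO and 1602 in ND (-0.57, -0.70 to -0.44, not passed), and Col6a5 had 32 and 4 (3.56, 2.12 to 5.57, rose). The FACIT chains that rose were Col14a1 (255 reads in HFD_DMSO, 39 in ND, 3.31), Col16a1 (218 and 78, 2.09), Col20a1 (207 and 97, 1.70) and Col9a3 (32 and 10, 2.27). Col9a2, with 64 and 83 reads, did not pass (0.24). Col7a1, the chain of the fibrils that anchor epithelia, had 161 and 74 reads and rose by 1.73. The membrane-spanning chain Col13a1 had 304 and 213 reads and rose by 1.12, and the short chain Col8a1 had 43 and 20 reads and rose by 1.71. The chain that fell was Col25a1, a membrane-spanning chain known from neurons, with 1 read in HFD_DMSO and 19 in ND (-3.51, -9.01 to -0.98).

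The test behind these calls matches a fixed coefficient of variation of 0.2 between libraries. At 0.4, 9 of the 21 chains still rose (Col1a1, Col1a2, Col3a1, Col5a1, Col5a2, Col18a1, Col6a1, Col6a2 and Col14a1) and 0 fell, where 1.69% of all genes rose and 0.611% fell. With library totals in place of TMM, Col4a2, Col15a1, Col13a1 and Col8a1 were no longer called and Col6a6 was called lower, which left 17 higher and 2 lower, where 6.99% of all genes were higher and 24.8% lower.

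**Figure D3:**
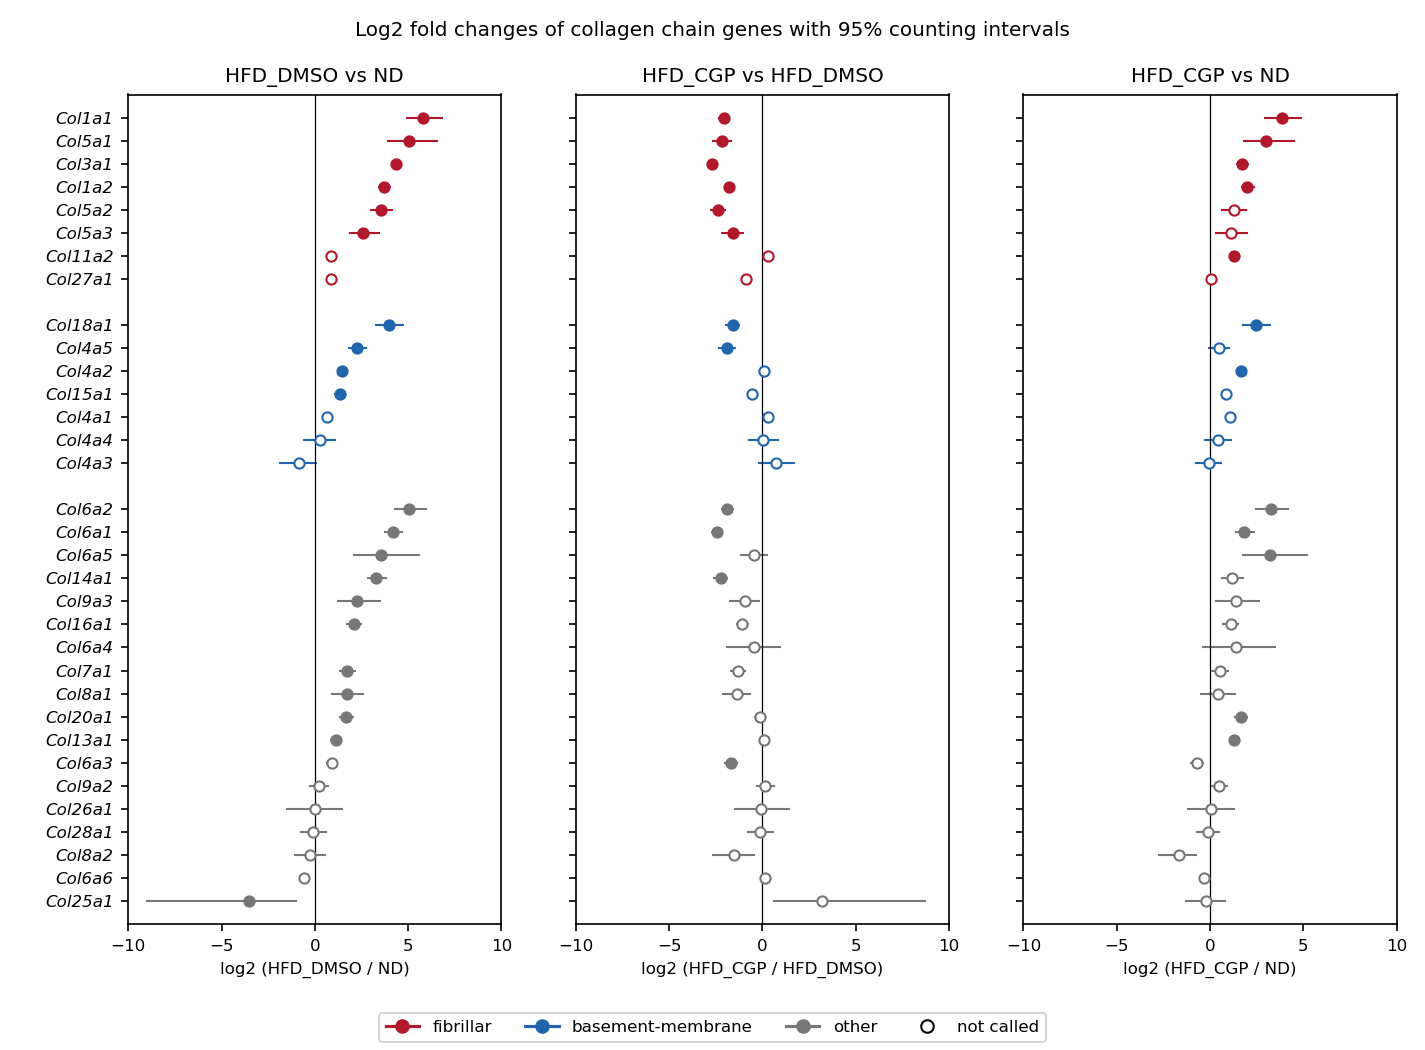
Log2 fold changes of collagen chain genes with at least 10 reads in the higher library of a pair and reads in both, with 95% counting intervals, for HFD_DMSO vs ND (left), HFD_CGP vs HFD_DMSO (middle) and HFD_CGP vs ND (right). Filled points passed an adjusted p under 0.05 in the authors' deposited table: 6 of the 8 fibrillar chains drawn lie at 2.60 or above in HFD_DMSO vs ND and at -1.58 or below in HFD_CGP vs HFD_DMSO. The panels share libraries.

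The genes that make, trim and bind collagen were taken as lists. Of 18 genes for collagen synthesis in the endoplasmic reticulum 2 rose in HFD_DMSO vs ND and 0 fell. The share that rose was near the 12.6% of all genes, and 13.2% of all genes fell. Serpinh1, the collagen chaperone HSP47, had 991 reads in HFD_DMSO against 399 in ND and rose by 1.92 (1.75 to 2.09), and Fkbp10, a helper of collagen folding, had 51 and 8 and rose by 3.26. The lysyl hydroxylases Plod1 (423 and 358 reads, 0.85) and Plod3 (687 and 589, 0.83), the prolyl hydroxylase P3h3 (221 and 185, 0.87) and the galactosyltransferases Colgalt1 (303 and 898, -0.96) and Colgalt2 (37 and 125, -1.14) did not pass. The prolyl hydroxylase subunit P4ha1, which adds the hydroxyl groups that hold the helix together, had 573 and 1088 reads and did not pass either (-0.31). The median log2 fold change of the list, 0.19, compares with 1.71 for the chains and -0.08 for all genes.

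Of the 11 genes tested for propeptide trimming and crosslinking 5 rose and 0 fell (median 1.05), against the same 12.6% and 13.2% of all genes. Loxl1, a crosslinking oxidase, had 138 reads in HFD_DMSO and 10 in ND and rose by 4.38 (3.47 to 5.49), and Lox had 43 and 0 reads, at least 21.9-fold higher. Pcolce, which speeds the cut of the carboxyl propeptide, had 194 and 48 reads (2.62), and the amino-propeptide protease genes Adamts2 and Adamts14 had 77 and 3 reads and 10 and 0 reads. Loxl2 (256 and 255 reads, 0.62) and the carboxyl-propeptide protease Bmp1 (1639 and 1785, 0.49) did not pass. Of 9 collagen receptor genes 4 rose and 1 fell (median 0.35), with the same shares of all genes beside them. Those that rose were the uptake receptor Mrc2 (83 reads in HFD_DMSO, 5 in ND, 4.62), the kinase receptor Ddr2 (95 and 15, 3.26) and the integrin chains Itga10 (143 and 85, 1.36) and Itga11 (8 and 0). Itgb1, the beta chain that the collagen-binding integrins share, fell by 1.54, with 1321 reads in HFD_DMSO against 5870 in ND. Ddr1 (-0.58), Itga1 (0.35) and Itga2 (-0.89) did not pass. P4ha1, Fkbp10, Lox, Adamts2, Adamts14, Mrc2, Ddr2 and Itga11, and Pcolce2 below, were named after their values were seen.

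Markers of stellate cells or fibroblasts (Pdgfra, Dcn, Lum, Thy1 and Pdgfrl) moved with the fibrillar chains. Summed over the 5 genes they stood at 54.2 CPM in HFD_CGP, 204 in HFD_DMSO and 24.3 in ND, with 0 of 5 markers at 0 in any library, and 4 of 5 rose in HFD_DMSO vs ND, all but Pdgfrl. Dcn alone had 588, 1536 and 53 reads. Duct markers (Krt19, Krt7, Sox9, Spp1 and Cftr) were also highest in HFD_DMSO, at 413, 728 and 336 CPM, with 4 of 5 higher against ND. Pericyte markers (Pdgfrb, Rgs5, Cspg4, Notch3 and Acta2) stood at 206, 205 and 172, with 2 of 5 higher in HFD_DMSO vs ND. Endothelial markers (Pecam1, Cdh5, Kdr, Plvap and Esm1) stood at 593, 434 and 295, and 1 of 5, Plvap, rose in HFD_DMSO vs ND. Col4a1 and Col4a2 stood in the same order per length, as did Cdh5, Kdr and Plvap singly. Pecam1 (59.9, 50.4 and 54.8 CPM) and Esm1 (135, 83.0 and 123) did not, and were lowest in HFD_DMSO. Beside these counts, 12.6% of all genes rose and 13.2% fell in HFD_DMSO vs ND. The part of any of these cell types in the collagen differences was not tested.

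HFD_CGP vs HFD_DMSO compares the libraries from mice on the high-fat diet with and without the MNK inhibitor. Chains of types I, III and V and the type VI chains Col6a1, Col6a2 and Col6a3 were lower in HFD_CGP islets, whereas Col4a1 and Col4a2 were not. Of the 40 chain genes tested 13 fell and 0 rose by the authors' deposited table, where 4.95% of all 22208 genes fell and 1.4% rose. Those that fell were 7 of 10 fibrillar, 2 of 7 basement-membrane and 4 of 23 other chains. The median log2 fold change was -2.05 for fibrillar, 0.04 for basement-membrane and -0.71 for other chains, against -1.01 for all chains and 0.06 for all genes, and the fibrillar median lay at -2.10 relative to the basement-membrane one. The HFD_DMSO library is the one compared with ND above, so a level peculiar to that library enters both comparisons with opposite signs, and the values are set side by side without a test of their relation.

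Col3a1 had 476 reads in HFD_CGP islets against 1841 in HFD_DMSO islets and fell by 2.72 (counting interval -2.87 to -2.57), a 6.57-fold lower value with an adjusted p of 1.3e-07 in the authors' deposited table. The type I chains had 166 (Col1a1) and 409 (Col1a2) reads in HFD_CGP and 406 and 839 in HFD_DMSO, with log2 fold changes of -2.05 (-2.33 to -1.79) and -1.80 (-1.98 to -1.63). All type V chains fell: Col5a1 had 51 and 135 reads (-2.17), Col5a2 79 and 240 (-2.37) and Col5a3 43 and 76 (-1.58). Col24a1 had 0 reads in HFD_CGP and 11 in HFD_DMSO, at least 6.23-fold lower. Col27a1 (587 and 644 reads, -0.90, -1.06 to -0.74) and Col11a2 (676 and 325 reads, 0.29, 0.10 to 0.49) did not pass. These were also the fibrillar chains with at least 100 reads that did not pass in HFD_DMSO vs ND.

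Of the type IV chains, Col4a1 had 2428 reads in HFD_CGP against 1148 in HFD_DMSO and Col4a2 1468 against 800, with log2 fold changes of 0.32 (0.21 to 0.42) and 0.11 (-0.01 to 0.24) after scaling, neither of which passed. Col4a5 stood apart from them: it had 76 and 165 reads and fell by 1.88 (-2.30 to -1.48). Col18a1 had 116 and 205 reads and fell by 1.59 (-1.93 to -1.25), while Col15a1, with 382 and 329, did not pass (-0.55). Among the type VI chains, Col6a1 had 176 reads in HFD_CGP and 565 in HFD_DMSO (-2.45, -2.70 to -2.20), Col6a2 142 and 307 (-1.88) and Col6a3 128 and 243 (-1.69), and all 3 fell. Col6a6 had 1336 and 705 reads and did not pass (0.16, 0.02 to 0.29). Col14a1, a chain on the surface of fibres, had 93 and 255 reads and fell by 2.22 (-2.58 to -1.87). Col7a1 (111 and 161 reads, -1.30), Col16a1 (177 and 218, -1.07), Col20a1 (320 and 207, -0.14), Col13a1 (549 and 304, 0.09) and Col9a2 (120 and 64, 0.14) did not pass.

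Against 4.95% of all genes that fell and 1.4% that rose, 1 of 18 synthesis genes fell, Fkbp10 (27 reads in HFD_CGP, 51 in HFD_DMSO, -1.68), and Serpinh1 did not pass (1100 and 991 reads, -0.61). Of the 10 trimming and crosslinking genes tested 4 fell, namely Loxl1 (34 and 138 reads, -2.78), Lox (16 and 43, -2.18), Adamts2 (32 and 77, -2.03) and Adamts14 (1 and 10, -3.89), while Pcolce did not pass (160 and 194, -1.04). Of 9 receptors 1 fell, Mrc2 (49 and 83 reads, -1.52). Markers of stellate cells or fibroblasts fell for 4 of 5 genes and duct markers for 4 of 5, at the summed levels given above, and 0 of 5 endothelial markers passed. Acinar markers fell for 5 of 5. Of the pericyte markers 1 of 5, Notch3 (1.32), rose and 0 fell. Of the hormone genes 2 of 5, Ins1 (-1.92) and Ins2 (-1.81), fell and 0 rose. When the coefficient of variation was set to 0.4, 0 of the 13 collagen calls held, where 0.729% of all genes fell and 0.0405% rose. With library totals Col18a1, Col5a3 and Col6a3 were no longer called and Col25a1 was called higher, which left 10 lower and 1 higher, where 3.06% of all genes were lower and 14.4% higher.

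HFD_CGP vs ND sets the treated high-fat group against the ND library, which it shares with the first comparison. The chains that were higher in HFD_CGP islets included both type I chains, Col3a1, Col5a1, Col4a2, Col6a1 and Col6a2. Of the 41 chain genes tested 12 rose and 0 fell by the authors' deposited table, where 4.57% of all 23063 genes rose and 4.36% fell. Those that rose were 5 of 10 fibrillar, 2 of 7 basement-membrane and 5 of 24 other chains, with medians of 1.51, 0.87 and 0.82, against 1.12 for all chains and 0.02 for all genes. Col1a1 had 166 reads in HFD_CGP and 11 in ND and rose by 3.84 (2.97 to 4.88), Col1a2 by 2.01 (1.69 to 2.35) and Col3a1 by 1.74 (1.46 to 2.03). Col5a1 rose by 3.0, while Col5a2 (1.28) and Col5a3 (1.11) did not pass. Col11a2 had 676 reads in HFD_CGP against 267 in ND and rose by 1.27 (1.07 to 1.48), with an adjusted p of 0.039 in the authors' deposited table, and Col27a1 did not pass (0.08).

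In the basement-membrane class Col4a2 had 1468 reads in HFD_CGP against 451 in ND and rose by 1.64 (1.48 to 1.79), and Col18a1 had 116 against 20 and rose by 2.46. Col4a1, with 2428 against 1109 reads, did not pass (1.06, 0.96 to 1.17). Col4a5 (0.48) and Col15a1 (0.87) did not pass either. The other chains that rose were Col6a1 (1.84), Col6a2 (3.27), Col6a5 (3.22), Col20a1 (1.66) and Col13a1 (1.30), the last with 549 reads in HFD_CGP and 213 in ND. Col6a3 stood at -0.69 (128 and 198 reads), Col6a6 at -0.33, Col14a1 at 1.19, Col16a1 at 1.12, Col7a1 at 0.52 and Col9a2 at 0.47, and none of these 6 passed. Against 4.57% of all genes that rose and 4.36% that fell, 3 of 18 synthesis genes rose, Plod1 (1077 reads in HFD_CGP and 358 in ND, 1.52), Serpinh1 (1.40) and P3h3 (1.26). Of 10 trimming and crosslinking genes Adamts2 (3.30), Pcolce (1.67) and Lox (16 and 0 reads, at least 5.1-fold higher) rose and Pcolce2 fell (-1.90). Of 9 receptors Mrc2 (3.20), Ddr2 (2.04) and Itga10 (1.44) rose and Itgb1 (-1.35) and Itga2 (-1.71) fell. Markers of stellate cells or fibroblasts rose for 3 of 5 genes, pericyte markers for 3 of 5 and endothelial markers for 2 of 5. Of the duct markers 0 of 5 passed, and acinar markers fell for 5 of 5. At a coefficient of variation of 0.4, Col1a1 was the 1 chain gene still called, where 0.117% of all genes rose and 0.234% fell. With library totals the 12 calls held, where 4.91% of all genes rose and 4.21% fell.

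A plain 2-fold rule, with at least 10 reads in the higher library and no test, was also applied. Counts and shares by it are over genes with that many reads. In HFD_DMSO vs ND 21 of 33 chain genes were higher and 1 lower, where 21.1% of all genes were higher and 23.3% lower. In HFD_CGP vs HFD_DMSO 17 of 34 were lower and 1, Col25a1, higher, where 12.6% and 8.23% of all genes were. In HFD_CGP vs ND 19 of 33 were higher and 1, Col8a2, lower, where 15.1% and 14.1% of all genes were.

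Ratios between chains of one library do not depend on scaling, but were not adjusted for the transcript GC content described below. They are given as a description of 3 single libraries, with intervals that cover counting error and not the spread between animals. Per read of Col1a1, Col1a2 and Col3a1 together there were 3.71 reads of Col4a1 and Col4a2 in HFD_CGP (counting interval 3.46 to 3.97), 0.631 in HFD_DMSO (0.596 to 0.668) and 6.39 in ND (5.58 to 7.35). Type I collagen is built of Col1a1 and Col1a2 chains, and per kilobase the ratio of Col1a1 to Col1a2 was 0.768 in HFD_CGP, 0.916 in HFD_DMSO and 0.215 in ND, the last from 11 reads of Col1a1. The ratio of Col4a1 to Col4a2 per kilobase was 1.47, 1.27 and 2.18 in the same order. Col6a6 relative to Col6a1 and Col6a2 varied most: 4.20 reads per read in HFD_CGP (3.71 to 4.76), 0.808 in HFD_DMSO (0.731 to 0.894) and 26.3 in ND (20.3 to 34.5). For Col6a3 relative to the same pair the values were 0.403, 0.279 and 3.25.

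Fold changes over all genes followed the GC content of the transcripts in the comparisons with ND. In HFD_DMSO vs ND the median log2 fold change was -1.03 in the lowest of 10 GC bins and 0.85 in the highest (Spearman correlation 0.45 over 16910 genes of 2 libraries, a description). In HFD_CGP vs HFD_DMSO these values were 0.15, -0.09 and -0.11, and in HFD_CGP vs ND -0.78, 0.85 and 0.55. Many collagen transcripts lay in the upper part of the GC range, for example at 58.9% for Col1a1, 52.5% for Col3a1, 57.7% for Col4a1 and 60.6% for Col4a2. Others lay lower, among them Col5a2 (49.6%), Col14a1 (49.7%) and Col8a1 (46.8%). Relative to the median of genes of like GC content, the fibrillar median in HFD_DMSO vs ND was 3.59, the basement-membrane one 0.59 and that of the other chains 0.88. Col3a1 stood at 4.11, Col1a1 at 4.95 and Col6a1 at 3.51 on that scale, while Col4a2 (0.59), Col15a1 (0.65), Col13a1 (0.27) and Col7a1 (0.88) lay within 2-fold of like genes. A 2-fold rule on that scale, with the same read minimum, gave 17 of 33 chains higher and 2 lower in HFD_DMSO vs ND. Of all genes 18.8% were higher and 15.7% lower. In HFD_CGP vs HFD_DMSO 16 of 34 were lower and 1 higher (13.3% and 7.38% of all genes). In HFD_CGP vs ND 10 of 33 were higher and 2 lower (9.64% each). The same medians were -1.97, 0.00 and -0.68 in HFD_CGP vs HFD_DMSO and 1.26, 0.33 and 0.35 in HFD_CGP vs ND, where Col4a2 (0.78), Col11a2 (0.42), Col13a1 (0.45) and Col20a1 (0.98), 4 of the 12 chains that rose there, lay within 2-fold of like genes. The part of GC content in the differences was not tested beyond this.

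**Figure D4:**
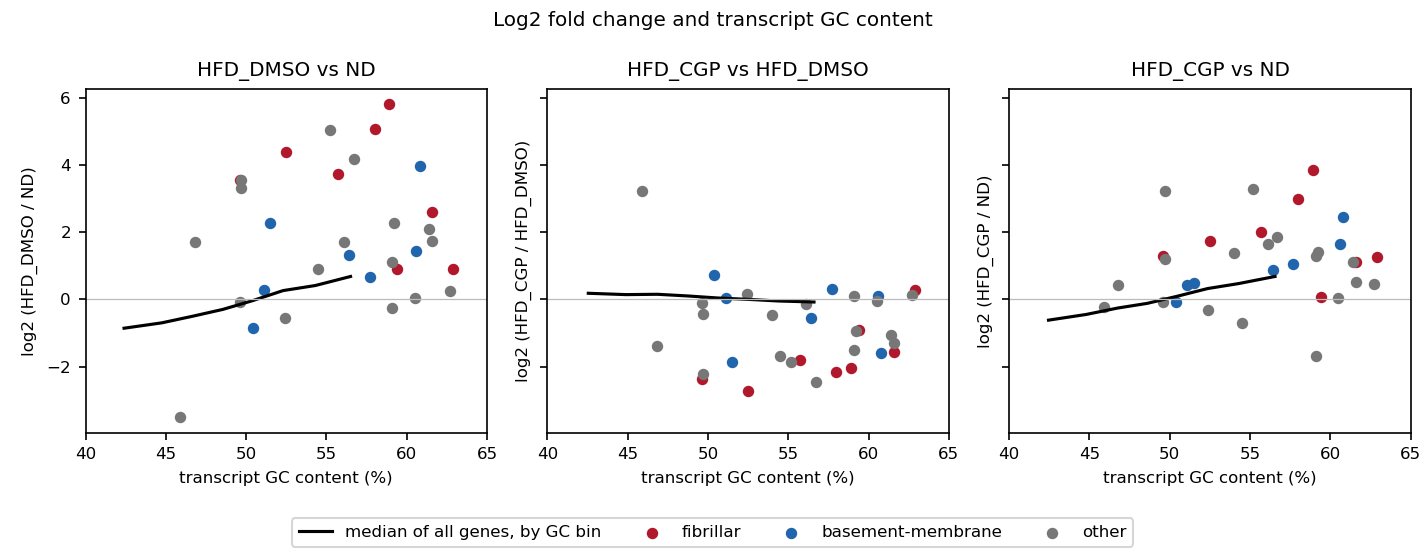
Log2 fold change against GC content of the longest annotated transcript (%) for collagen chain genes with at least 10 reads in the higher library of a pair and reads in both (points by class), with the median of all genes by GC bin as a black line (the lowest and highest bins are not drawn). In HFD_DMSO vs ND the line climbs to 0.68 in the last bin drawn, and fibrillar chains of types I, III and V lie well above it.

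Members with few reads complete the account. In the highest of their libraries, 22 of the 43 genes had 100 or more reads, 12 had 10 to 99 and 9 had 1 to 9. The 9 sparse genes were Col2a1, Col11a1, Col9a1, Col10a1, Col12a1, Col17a1, Col19a1, Col22a1 and Col23a1, and 0 of them passed in any comparison. Of the 12 in the middle range, Col5a3, Col6a5, Col8a1, Col9a3, Col24a1 and Col25a1 are described above. Col4a3, Col4a4, Col6a4, Col8a2, Col26a1 and Col28a1 did not pass in any comparison. Col8a2, a short chain known from the cornea, had 13 reads in HFD_CGP, 22 in HFD_DMSO and 40 in ND, and its log2 fold change in HFD_CGP vs ND was -1.68 (-2.71 to -0.75, adjusted p of 0.073 in the authors' deposited table).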

How the data were processed

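Islet RNA was extracted with Trizol and 1 ug of total RNA went into each TruSeq library, per the labels' protocols. The submitters' processing notes name DESeq2 1.10.1. Aligner, counter, genome build and strand use were not stated in the sources used here.

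The authors deposited a table for each pair of groups. Its group columns hold a signal, which the values show to be read counts that the authors scaled to a common library size. It also holds the authors' log2 fold change, raw and adjusted p-value and gene length in bases. Since 1 read has a fixed worth in each group column, whole reads could be recovered: per column 99.81% to 99.98% of values lay within 0.1 of an integer, as did 100% of the values under 1000 reads. Where tables share a library, 6 to 9 genes differed, by up to 15 reads.

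On these reads the exact test of edgeR 4.0.16 (TMM factors, fixed dispersion 0.04, which is a coefficient of variation of 0.2, at least 2 reads over the pair) gave 5911, 1411 and 2060 calls. These equal the calls in the authors' deposited tables, with 0 that differ, and log2 fold changes were within 3e-04. Nothing in the labels records this test, and the design here had assumed DESeq2. Calls in the text come from the authors' deposited tables (adjusted p under 0.05) and fold changes from the recomputation. Counting intervals are exact (Clopper-Pearson, 95%) and cover counting error only. The fits were tested on simulated data. Levels are reads per kilobase of the authors' gene length and per 1000000 reads (RPKM), TMM-scaled over the 3 libraries. Coordinates are the tables' own, and those of all 43 members are identical in GENCODE M21 on GRCm38, which gave transcript GC content.

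Chain genes with at least 100 reads in any library are given with their reads, and up to 6 such genes of each pathway list, by size of fold change in HFD_DMSO vs ND. The chain classes, pathway lists and markers were chosen with earlier results of these data known. Alternatives were library totals, DESeq2 1.42.0 size factors, a larger coefficient of variation, other read minimums, a prior count of 5, a 2-fold rule, a GC-relative rule and, added after seeing the data, the recomputed test. Col4a6 was not analysed here. One further marker list is not reported here. Because strand use is not known, overlapping genes cannot be told apart: 6.07% of Col9a3 exon bases lie in Tcfl5 and 5.65% of those of Col4a3 in C430014B12Rik, and smaller shares for the other members.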

Additional observations from a re-analysis of the deposited data

How the results depend on the processing

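Of 42 alternative values for the counts of called chain genes 29 stayed within 1.5 times the reported count, of 15 for the difference between class medians 5 stayed within 0.10 to 0.13 on the log2 scale (the 95% counting error of the ratio of the summed reads of both classes), and of 6 for the fibrillar shares 0 stayed within their intervals. The 42 count values include those of the recomputed test, which gave the deposited calls with 0 that differ. These are among the 29 but change no setting. No direction of a class difference reversed. No paired analysis was possible because each group has 1 library. With a coefficient of variation of 0.4, HFD_DMSO vs ND had 9 chains higher and 0 lower, HFD_CGP vs HFD_DMSO 0 lower and HFD_CGP vs ND 1 higher. With library totals, 2 were lower in HFD_DMSO vs ND and 1 higher in HFD_CGP vs HFD_DMSO. With at least 100 reads 0 were lower in HFD_DMSO vs ND, because the 1 lower chain, Col25a1 (19 reads in ND), falls under that minimum. No share of all genes was computed for that minimum. The shares of all genes that go with the other counts listed here are given above. The 2-fold rule gave 1 higher in HFD_CGP vs HFD_DMSO, and 19 higher and 1 lower in HFD_CGP vs ND. Relative to genes of like GC content it gave 2 lower in HFD_DMSO vs ND, 1 higher in HFD_CGP vs HFD_DMSO and 2 lower in HFD_CGP vs ND. The fibrillar minus basement-membrane median was 2.39 in HFD_DMSO vs ND, and 2.23 with no filter, 2.03 with a prior count of 5, 3.06 against type IV chains only and 3.0 relative to like GC. In HFD_CGP vs HFD_DMSO it was -2.10, and -1.50 with at least 100 reads and -1.97 relative to like GC. In HFD_CGP vs ND it was 0.64, and 0.39 with at least 100 reads, 0.41 with no filter, 1.03 against type IV chains only and 0.93 relative to like GC. Fibrillar shares per kilobase were 18.9% in HFD_CGP, 34.3% in HFD_DMSO and 15.2% in ND, and without the most read chain of each library 31.2%, 31.2% and 27.5%. The shares without the most read chain leave out a fibrillar chain in HFD_DMSO only, so they do not compare the libraries. Library totals shift all log2 fold changes by 0.02 in HFD_CGP vs ND, by 0.65 in HFD_CGP vs HFD_DMSO and by -0.54 in HFD_DMSO vs ND. The spread between animals is not measured by 1 library per group, so the counts rest on the coefficient of variation assumed. Depth limited the 9 chains with under 10 reads. The cause of the other changes was not tested.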

Other observations

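Several chain genes are neighbours in the genome, and neighbours did not always show like values. On chromosome 10, Col6a2 and Col6a1 lie 85.2 kb apart on the same strand, with Col18a1 326 kb farther on, and these had log2 fold changes of 5.05, 4.19 and 3.96 in HFD_DMSO vs ND. Col3a1 and Col5a2 on chromosome 1 lie tail to tail 24.6 kb apart, with 4.37 and 3.56 in HFD_DMSO vs ND and -2.72 and -2.37 in HFD_CGP vs HFD_DMSO. On chromosome 9, by contrast, Col6a6 and Col6a5 are 27.9 kb apart on the same strand, with -0.57 and 3.56 in HFD_DMSO vs ND, the second from 32 reads in HFD_DMSO and 4 in ND. Col4a4 and Col4a3, head to head with 71 bases between them on chromosome 1, had 0.29 (-0.55 to 1.11) and -0.86 (-1.86 to 0.05) in HFD_DMSO vs ND. These counting intervals overlap, so that pair does not show unlike values. No test of neighbourhood was run on these pairs, which were picked after their values were seen.

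Col25a1 had 17 reads in HFD_CGP, 1 in HFD_DMSO and 19 in ND. Only Col26a1, with 13, 8 and 12, also had 10 or more reads in HFD_CGP and in ND and fewer in HFD_DMSO than 10. After scaling, Col26a1 was level at 0.644, 0.633 and 0.622 CPM, whereas Col25a1 stood at 0.842, 0.0792 and 0.985.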
